A study of Mus musculus with 10 samples.

Results

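Microglia set their membrane potential and their calcium entry with a small set of ion channels, and 8 of the genes for these channels were followed here: the potassium channel genes Kcnk13, Kcnk6, Kcnj2, Kcna3 and Kcnn4, and the transient receptor potential (TRP) channel genes Trpv2, Trpm2 and Trpm7. The 8 genes were chosen by symbol and matched to the gene identifiers of the count files. All 8 had reads in every library, out of 46152 genes counted. The mice were C57BL/6J, male and female, 8 to 12 weeks of age, and all received 8 days of oral gavage. The GW2580 group (5 mice, 2 male and 3 female) was given 80 mg/kg per day of GW2580, an inhibitor of the CSF1 receptor kinase, in 0.1% Tween 80 with 0.5% hydroxymethyl propyl-cellulose. The vehicle group (5 mice, 2 male and 3 female) was given that solution alone. CD11b+ cells were taken from the brain of each mouse with magnetic beads after a Percoll gradient, and each mouse gave 1 library, so the spread below is the spread between mice. CD11b is also carried by other myeloid cells, so the selection does not by itself separate microglia from them.

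Potassium channels hold the resting potential of microglia negative and let potassium leave the cell, and that efflux is a trigger of the NLRP3 inflammasome in macrophages. Kcnk13 encodes THIK-1, a tandem-pore leak channel that carries the resting potassium current of microglia and is opened further through the ADP receptor P2ry12. TRP channels are cation channels that, in myeloid cells, respond among other things to ADP-ribose (Trpm2) or carry magnesium and calcium together with a kinase domain (Trpm7).

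The libraries held 12550418 to 26079343 fragments assigned to genes, and all marker lists were detected. The 9 microglial markers summed to between 14311 and 21575 CPM (counts scaled to the library size and TMM factor) in the vehicle group and between 15798 and 55977 in the GW2580 group. The highest value was that of GW2580 3. TMM factors ran from 0.691 in GW2580 3 to 1.61 in GW2580 4. Against library size alone, this scaling raised all CPM of GW2580 3 and lowered those of GW2580 4. Vehicle 5 stood apart from the other libraries: its ependymal and choroid plexus markers summed to 25668 CPM, against 1203 to 2955 CPM in the other vehicle libraries, and its lymphocyte markers to 371 CPM, against 20.8 to 43.1 CPM. Vehicle 2 had the highest oligodendrocyte marker sum, 2660 CPM. Monocyte and granulocyte markers summed to 23636 CPM in Vehicle 1, above its microglial sum of 16788 CPM, and to 457 to 10272 CPM in the other libraries. Early response genes (72462 CPM) and border macrophage markers (292 CPM) were, like the microglial markers, highest in GW2580 3. On the first principal component of 7580 genes, which held 47.1% of the variance, GW2580 5 (45.8) lay beside Vehicle 1 to 4 (35.0 to 40.5), while GW2580 1, 3 and 4 lay between -46.4 and -37.8 and Vehicle 5 at -77.9. The share of fragments on no exon was 38.4 to 49.1% with vehicle and 38.7 to 60.1% with GW2580. The part of these markers in the results below was not tested except where a value without a library, or with markers in the fit, is given. In bulk RNA, fewer cells of a type and less RNA per cell cannot be told apart.

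Levels were compared between genes only after division by exon length. On that scale Kcnk6 was the most abundant of the 8 genes, with a mean over 10 libraries of 31.6 CPM per kb, followed by Trpv2 with 30.6 and Kcnk13 with 20.4. Kcna3 had 11.1 CPM per kb and Kcnn4 7.68, and the lowest were Trpm7 with 4.86, Trpm2 with 4.57 and Kcnj2 with 2.97. The order was not firm everywhere: Kcnk6 exceeded Trpv2 in 6 of 10 libraries, Kcna3 exceeded Kcnn4 in 5, and Trpm7 exceeded Trpm2 in 5. Trpv2 exceeded Kcnk13 in all 10 libraries. Among the 28419 genes tested, Kcnk6 stood at the 93.2 percentile of the mean level per kb and Kcnj2 at the 59.4 percentile. All 8 were far below the microglial receptor gene P2ry12, which had 1515 ± 580 CPM per kb (SD, n = 5) with vehicle and 1593 ± 746 (SD, n = 5) with GW2580.

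The comparison between groups asked which of these genes differed after GW2580. A gene was called when its fold change exceeded 2 at an unadjusted p under 0.05 in edgeR's quasi-likelihood test, the thresholds of the study. Of the 8 genes, 1 was called higher (Kcnk6) and 0 were called lower. Over all 28419 tested genes 4.01% were called higher and 6.7% lower, so 1 call among 8 is read here for Kcnk6 alone. After Benjamini-Hochberg adjustment the edgeR quasi-likelihood test called 0 of all tested genes at 0.05, where 4186 genes had an unadjusted p under 0.05. DESeq2 called 177 genes at an adjusted p of 0.05, edgeR's exact test 28 and limma-voom 0. In 0 of the 8 genes did all 5 GW2580 libraries lie above all vehicle libraries, a pattern found in 2.04% of all tested genes. Of the 8 fitted fold changes 7 were above 0, and their median was 0.70 on the log2 scale, against -0.03 over all tested genes, of which 48.4% were above 0. Scaling by library size alone moved the median of all tested genes to 0.23, and the share of calls that were higher from 37.5% to 70.8%. Relative to that median the median of the 8 genes was then 0.61, against 0.72 with TMM scaling. Without GW2580 3 the fitted fold changes of 6 of the 8 genes were above 0, with a median of 0.32, or 0.38 relative to all tested genes.

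**Figure D1:**
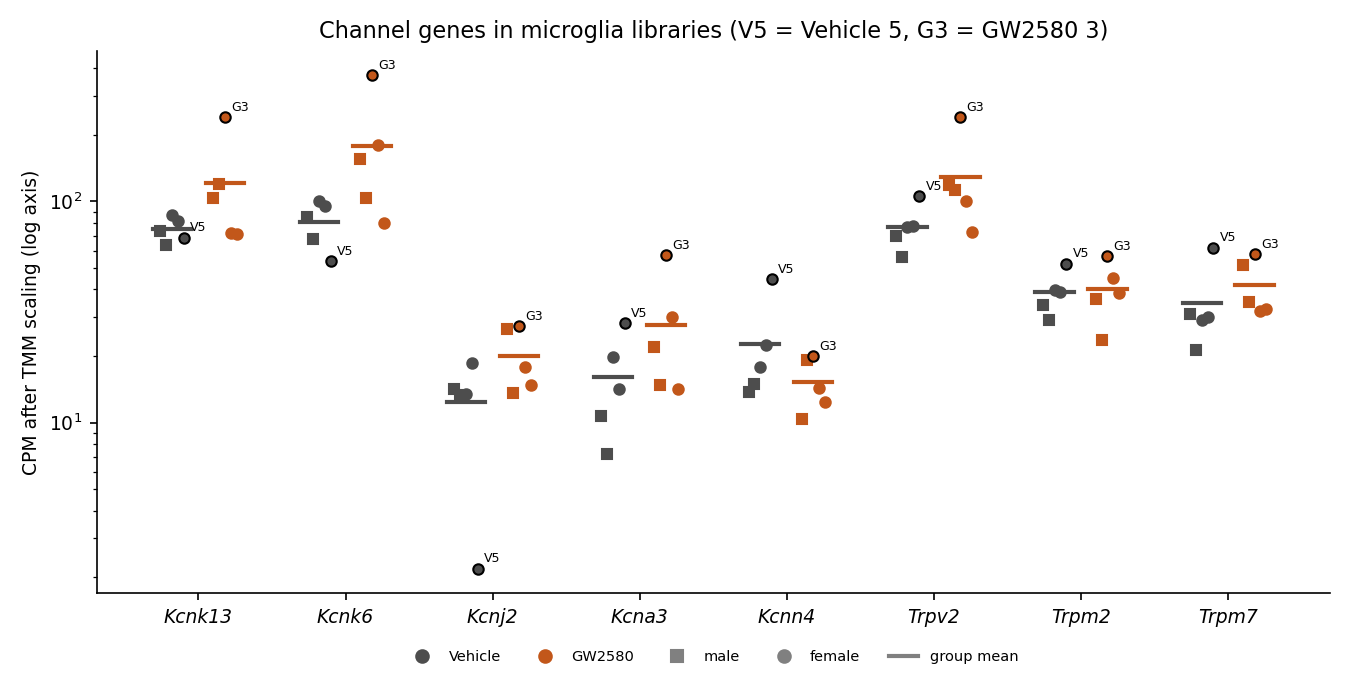
Level of each channel gene in each library, in CPM after TMM scaling on a log axis, for vehicle (grey) and GW2580 (orange); squares are male mice, circles female mice and bars group means, with Vehicle 5 and GW2580 3 outlined. GW2580 3 was the highest GW2580 library for all 8 genes, and Vehicle 5 was the highest vehicle library for 5 of them.

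Kcnk6 encodes TWIK-2, a tandem-pore potassium channel through which potassium leaves macrophages when ATP opens P2X7. The gene lies on the minus strand at chr7:29221928-29232522 (GRCm38.p6) and has 3 exons. In Vehicle 1 to 5 its level was 85.3, 67.5, 100.2, 94.9 and 53.8 CPM, and in GW2580 1 to 5 it was 156, 104, 371, 179 and 79.6 CPM. Of the 5 GW2580 libraries 4 were above every vehicle library, and GW2580 5 lay within the vehicle range. Across all tested genes, 7.61% had at least 4 GW2580 libraries above every vehicle library. The group means were 80.3 ± 19.4 and 178 ± 115 CPM (SD, n = 5 each), a log2 fold change of 1.15 (SE 0.42, standard error), which is 2.22-fold. In edgeR's quasi-likelihood test the unadjusted p was 0.0155, and the Benjamini-Hochberg adjusted value was 0.280, which many genes share and which is the smallest adjusted p of the fit. The two-sided exact permutation test of the mean log2 CPM gave p = 0.0476, where the smallest possible is 0.00794. Without GW2580 3 the log2 fold change was 0.69 (unadjusted p = 0.0535) and without Vehicle 2 and Vehicle 5 it was 0.92 (unadjusted p = 0.0807), and neither met the call. Without GW2580 5 it was 1.24, and with the share of fragments on no exon as a covariate it was 1.26, and both met it. With the microglial markers as a covariate, an analysis chosen after seeing the data, the log2 fold change was 0.67 with an unadjusted p of 0.0650. That covariate, here and below, was the mean log2 CPM of the 9 microglial markers. Of these, 2 (Csf1r and Cx3cr1) were themselves called higher with GW2580. A smaller fold change with it can therefore not be read as an adjustment for microglial content alone. The difference from the mean over libraries in GW2580 3 was 1.76 for Kcnk6 and 1.37 for the summed microglial markers, both on the log2 scale.

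Kcnk13 lies on the plus strand at chr12:99963149-100062682 and has 2 exons. Its level was 73.5, 63.6, 86.5, 81.7 and 68.6 CPM in Vehicle 1 to 5, and 103, 119, 240.0, 72.0 and 71.2 CPM in GW2580 1 to 5. GW2580 1, 2 and 3 were above every vehicle library, while GW2580 4 and 5 lay inside the narrow vehicle range. At least 3 GW2580 libraries lay above every vehicle library for 15.3% of all tested genes. Group means went from 74.8 ± 9.36 to 121 ± 69.6 CPM (SD, n = 5 each), a log2 fold change of 0.70 (SE 0.37). It did not pass the test, with an adjusted p of 0.385 (Benjamini-Hochberg, edgeR quasi-likelihood test) and a two-sided exact permutation p of 0.111. Without GW2580 3 the log2 fold change was 0.29, without GW2580 5 it was 0.75, and with the microglial markers as a covariate it was 0.14. P2ry12, whose receptor acts on this channel, had a log2 fold change of 0.07 (SE 0.49).

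Kcnj2 encodes the inward rectifier Kir2.1, which holds the resting potential near that of potassium. The gene lies on the plus strand at chr11:111066164-111076825 and has 2 exons. Its level was 14.2, 13.3, 13.5, 18.6 and 2.19 CPM in Vehicle 1 to 5, and 26.6, 13.6, 27.3, 17.8 and 14.8 CPM in GW2580 1 to 5. Vehicle 5, with 2.19 CPM, was far below all others, and 2 GW2580 libraries exceeded all of the vehicle libraries. Its log2 fold change of 0.70 (SE 0.45) did not pass the test, with an unadjusted p of 0.142, and it was 0.43 without Vehicle 5.

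Kcna3 encodes Kv1.3, the voltage-gated outward channel described in activated microglia and in T lymphocytes. It is a gene of 1 exon, on the plus strand at chr3:107036162-107038129. Its level was 10.8, 7.21, 19.7, 14.2 and 28.3 CPM in Vehicle 1 to 5, and 22.1, 14.8, 57.4, 30.2 and 14.2 CPM in GW2580 1 to 5. The groups overlapped, with GW2580 3 highest and Vehicle 5 the highest of its group. Its fitted log2 fold change was 0.79 (SE 0.45, unadjusted p = 0.104), so the gene was not called. Vehicle 5 was also the library with the highest lymphocyte marker sum. Without Vehicle 5 the log2 fold change was 1.10 (unadjusted p = 0.0206), which met the call, and without GW2580 3 it was 0.34 (unadjusted p = 0.416).

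Kcnn4 encodes KCa3.1, a potassium channel opened by calcium through bound calmodulin, and it too is abundant in T lymphocytes. The gene lies on the plus strand at chr7:24369826-24385212 and has 9 exons. Its level was 13.8, 14.9, 17.9, 22.5 and 44.4 CPM in Vehicle 1 to 5, and 10.4, 19.2, 20.1, 14.4 and 12.4 CPM in GW2580 1 to 5. It was the 1 gene of the 8 with a negative fitted difference, a log2 fold change of -0.57 (SE 0.36) that did not pass the test (unadjusted p = 0.139). Vehicle 5 was above every other library, and without it the log2 fold change was -0.18 (unadjusted p = 0.532).

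**Figure D2:**
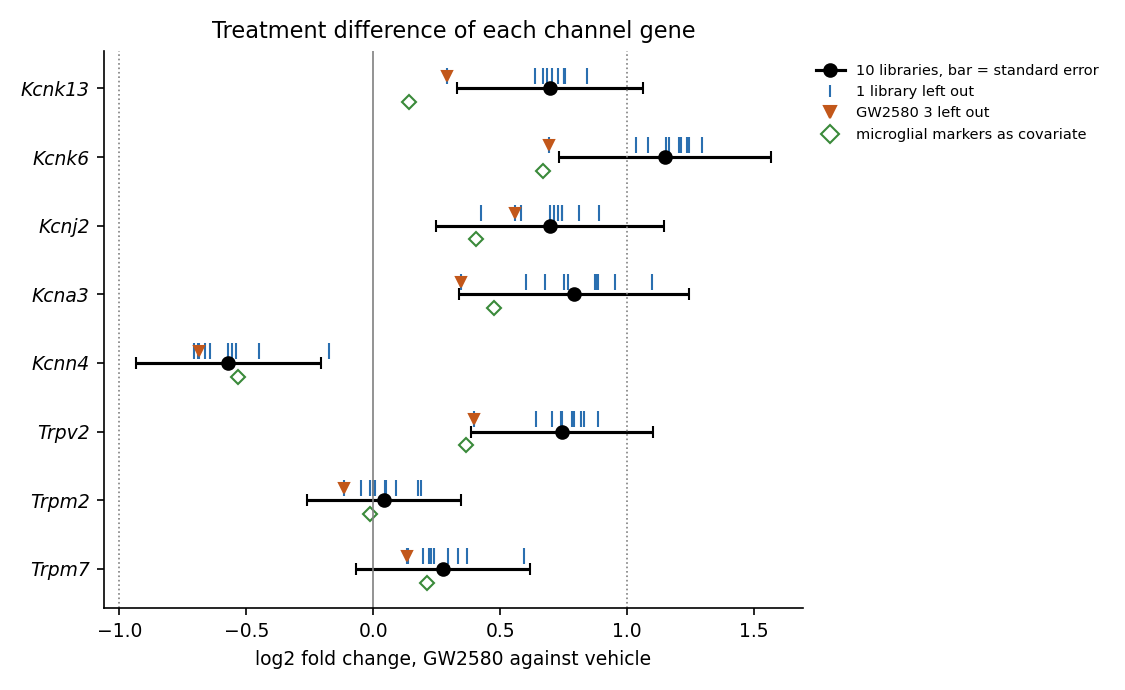
Log2 fold change of GW2580 against vehicle for each channel gene (black point, bar = standard error), with the values when 1 library was left out (blue ticks, orange triangle for GW2580 3) and with the microglial markers as a covariate (green diamond). Kcnk6 lay at 1.15, beyond the dotted line of a 2-fold change, and at 0.69 without GW2580 3; Kcnn4 was below 0 in each of these.

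Trpv2 encodes a calcium-permeable TRP channel of macrophages with a part in phagocytosis. The gene lies on the plus strand at chr11:62574486-62600305 and has 17 exons. Its level was 69.6, 56.1, 76.3, 77.4 and 106 CPM in Vehicle 1 to 5, and 118, 113, 239, 100.4 and 72.9 CPM in GW2580 1 to 5. GW2580 1, 2 and 3 were above every vehicle library, and the other two lay within the vehicle range. Group means went from 77.0 ± 18.1 to 129 ± 64.3 CPM (SD, n = 5 each), a log2 fold change of 0.74 (SE 0.36). It was not called, with an adjusted p of 0.351 (Benjamini-Hochberg, edgeR quasi-likelihood test) and a two-sided exact permutation p of 0.0635. Without GW2580 3 it was 0.40, with the microglial markers as a covariate 0.37, and without GW2580 5 it was 0.82.

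Trpm2 encodes a cation channel opened by ADP-ribose under oxidative stress. The gene lies on the minus strand at chr10:77907722-77969909 and has 37 exons, with 44 and 47 exon bases shared with 2 same-strand genes that had almost no counts. Its level was 34.0, 29.1, 39.7, 39.2 and 52.3 CPM in Vehicle 1 to 5, and 36.2, 23.7, 56.8, 45.0 and 38.5 CPM in GW2580 1 to 5. Both groups covered nearly the same range. The log2 fold change was 0.04 (SE 0.30), and values from -0.11 to 0.19 were fitted when single libraries were left out. With scaling by library size alone it was 0.30, near the median of all genes on that scale.

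Trpm7 encodes a channel fused to a kinase that carries magnesium, calcium and zinc. The gene lies on the minus strand at chr2:126791558-126876261 and has 40 exons. Its level was 31.1, 21.2, 29.1, 29.9 and 61.8 CPM in Vehicle 1 to 5, and 51.7, 35.2, 57.8, 32.1 and 32.7 CPM in GW2580 1 to 5. All 5 GW2580 libraries were above 4 of the vehicle libraries and below Vehicle 5. The log2 fold change was 0.27 (SE 0.34, unadjusted p = 0.434), and without Vehicle 5 it was 0.59 (unadjusted p = 0.0553).

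The treatment difference was also estimated in each sex, with 2 against 2 male mice and 3 against 3 female mice. For Kcnk6 the log2 fold change was 0.68 (SE 0.38) in males and 1.34 (SE 0.69) in females. For Kcnn4 it was -0.05 (SE 0.39) in males and -0.82 (SE 0.51) in females. The interaction of sex and treatment had an unadjusted p of 0.238 or more for all 8 genes, against 2.52% of all tested genes with a p under 0.05.

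**Figure D3:**
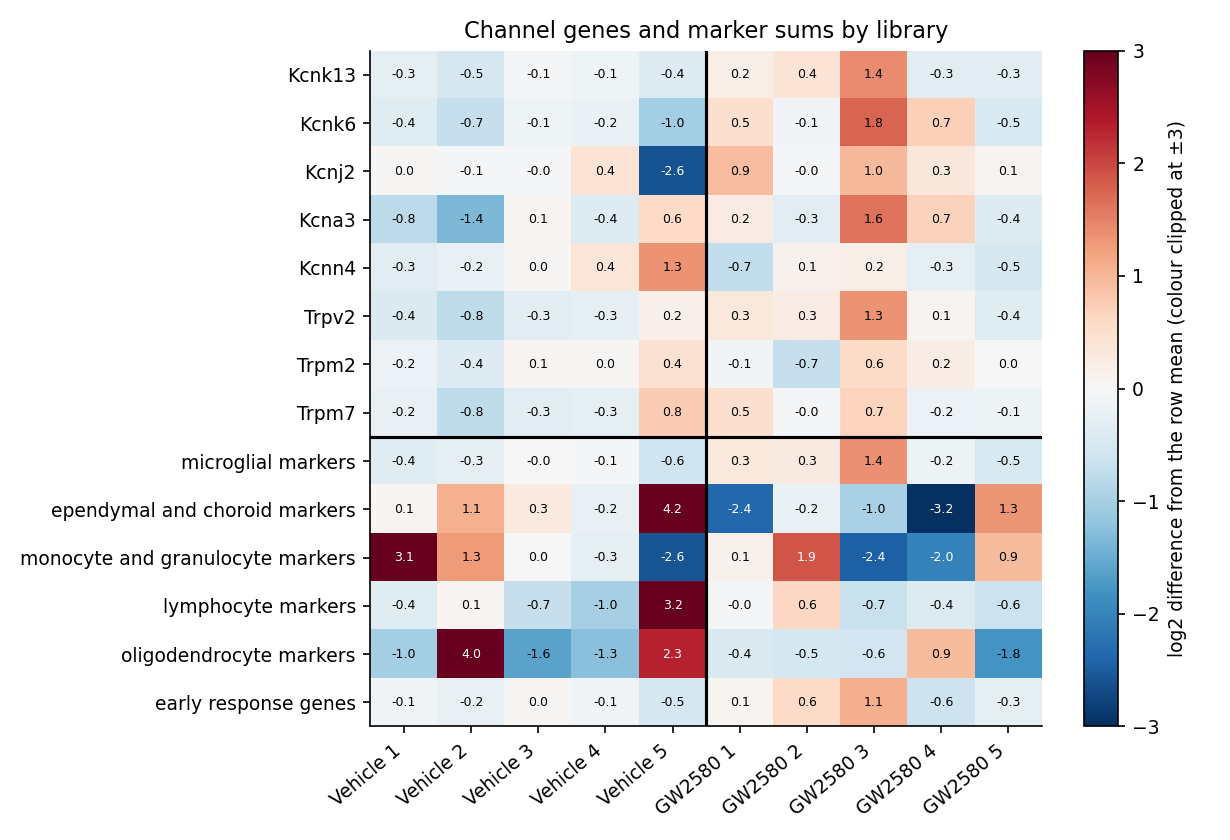
Difference of each library from the row mean on the log2 scale, for the log2 CPM of the 8 channel genes (above the line) and the log2 of summed marker CPM (below it), with vehicle libraries left and GW2580 libraries right. Kcnk13, Kcnk6, Kcnj2, Kcna3, Trpv2 and Trpm2 were highest in GW2580 3, as was the microglial marker sum. Kcnn4 and Trpm7 were highest in Vehicle 5, as were the lymphocyte sum and the ependymal and choroid sum, the latter mostly Ttr.

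The profiles of the 8 genes over the 10 libraries were compared by the root mean square (RMS) difference of centred log2 CPM, where 0 is an identical profile. Of the 28 pairs, Kcnk13 and Trpv2 were the most alike, with 0.262, and Kcnj2 and Kcnn4 the least alike, with 1.41. Among 7574 other genes of at least 20 CPM, the closest to Kcnk13 were Irf5 (0.0698) and Vsir (0.0750), against a median of 0.619 over these genes. The closest to Kcnk6 were C5ar2 (0.169) and Lifr (0.184), and the closest to Trpv2 were Capn3 and Lrch1 (both 0.105). Trpm7 was nearest to Atl2 (0.109) and Usp40 (0.123), and Trpm2 to Ranbp10 (0.160) and Dst (0.175). For Kcna3 the nearest were Tmem104 (0.239) and Arhgap4 (0.262), and for Kcnn4 they were Spats2 (0.194) and Pim2 (0.202). Kcnj2 was the least closely matched, with Tox3 at 0.309 and Donson at 0.339.

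Kcnk13 and Trpv2 moved most nearly together, so the 250 bases before 1 annotated start of each are shown (RefSeq, GRCm38.p6, plus strand, chr12:99964249-99964498 and chr11:62574236-62574485). Capitals mark GAGGAA, the core of the site of the myeloid factor PU.1, a motif chosen with the sequences in view and searched on both strands as GAGGAA and TTCCTC.
Kcnk13: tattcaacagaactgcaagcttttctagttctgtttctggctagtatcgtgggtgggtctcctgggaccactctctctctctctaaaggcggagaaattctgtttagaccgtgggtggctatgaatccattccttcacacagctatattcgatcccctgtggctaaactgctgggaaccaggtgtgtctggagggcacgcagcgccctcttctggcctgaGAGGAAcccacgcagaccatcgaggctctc
Trpv2: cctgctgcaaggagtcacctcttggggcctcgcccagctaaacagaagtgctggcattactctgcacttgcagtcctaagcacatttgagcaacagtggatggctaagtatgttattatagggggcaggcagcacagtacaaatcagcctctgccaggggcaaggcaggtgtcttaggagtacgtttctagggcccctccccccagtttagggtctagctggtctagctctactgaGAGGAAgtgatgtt
The motif began 30 bases before the start in Kcnk13 and 14 bases before it in Trpv2, where 3 starts are annotated. Sequences were at hand for 7 of the 8 genes, in 9 windows, of which 5 held the motif. Among those 5 were the overlapping windows of Trpv2, which held the same site, so the 5 are not independent. Of all 32851 promoter windows of that length, 23.3% held it, and no test of the difference was made. The longer GAGGAAGT was in 2 of the 9 windows, both of Trpv2 and overlapping each other, and in 2.44% of all windows. A match is a description of the letters and not a bound site.

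The other genes of both channel families were examined in the same fit. Of 88 other potassium channel genes 83 were tested, 1 was called higher and 17 lower, and their median log2 fold change was -0.41. Over all tested genes these shares were 4.01% and 6.7%. Of the 17 genes called lower, 11 were highest in Vehicle 5 and 4 in Vehicle 2. Without Vehicle 2 and Vehicle 5, 1 gene was called higher and 4 lower, with a median of -0.04. With scaling by library size alone, 4 were called higher and 6 lower, where 2123 of all tested genes were called higher and 875 lower.

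Kcnj13 and Kcne2, channel genes known from the choroid plexus epithelium, were among those highest in Vehicle 5. Kcnj13 had 20.2, 57.5, 27.9, 31.3 and 1201 CPM in Vehicle 1 to 5 and a mean of 30.1 ± 12.4 CPM (SD, n = 5) with GW2580. Its log2 fold change was -3.15 and, without Vehicle 5, -0.19. Kcne2 had 255 CPM in Vehicle 5 and at most 11.7 CPM in the other vehicle libraries, and its log2 fold change moved from -2.70 to 0.32. Kcnh2 was called lower (log2 fold change -3.14) and was at -0.92 without Vehicle 5. Kcnj14 was called lower at -1.87 and was at -0.82 (unadjusted p = 0.0717) without Vehicle 2 and Vehicle 5. Kcnh5, at 2.36 and 5.44 CPM, was the gene called higher (log2 fold change 1.21, and 0.95 without Vehicle 5, under the 2-fold limit). Kcnk12, a relative of Kcnk13, was among the most abundant and had a log2 fold change of 0.28, and Kcnd1 had 0.94 (unadjusted p = 0.0529), which became 1.29 (unadjusted p = 0.00625) without Vehicle 5 and 0.57 (unadjusted p = 0.194) without GW2580 3. Kcnk12 was at -0.08 without GW2580 3.

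Of 25 other TRP channel genes 24 were tested, 1 was called higher and 2 lower, and the median log2 fold change was -0.06. The shares over all tested genes were 4.01% higher and 6.7% lower. Mcoln1, the lysosomal channel, was the most abundant of them, with group means of 78.5 ± 26.3 and 92.5 ± 50.8 CPM (vehicle, then GW2580; SD, n = 5 each). Trpv4 and Trpm3 had 402 and 577 CPM in Vehicle 5, and their log2 fold changes went from -1.90 to 0.88 and from -1.57 to 0.39 without it. Trpm4 had a log2 fold change of -0.07, and -0.27 without GW2580 3. Mcoln1 had 0.24, and -0.14 without GW2580 3. The genes called, Trpc4 (log2 fold change 1.17), Trpm5 (-1.71) and Trpa1 (-1.13), had means under 10 CPM in both groups. Trpc4 was at 0.97 without Vehicle 5 and Trpa1 at -0.96 without GW2580 3, and Trpm5 was not called without Vehicle 2 and Vehicle 5 (unadjusted p = 0.0664).

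**Figure D4:**
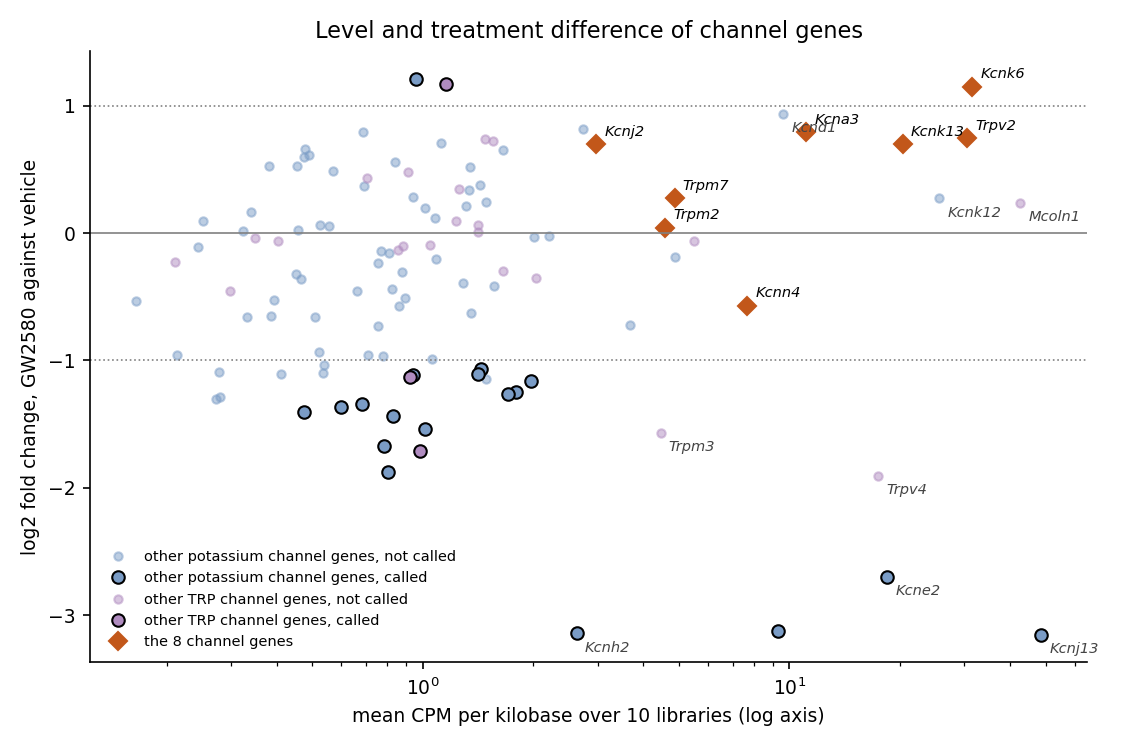
Mean level per kb over 10 libraries (log axis) against the log2 fold change of GW2580 to vehicle, for the 8 channel genes (diamonds) and the other tested potassium and TRP channel genes (circles, outlined where called); dotted lines mark a 2-fold change. Kcnk6 lay above 1, and Kcnj13, Kcne2 and Kcnh2 lay at -2.70 or below.

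Of 52 genes whose products act with these channels 51 were tested, 0 were called higher and 5 lower, with a median log2 fold change of -0.12. Over all tested genes 4.01% were called higher and 6.7% lower. Of the 6 sodium-potassium pump genes, which restore the potassium gradient, 3 were called lower, among them Atp1b1 (log2 fold change -3.35) and Atp1b2 (-2.50). Vehicle 5 had 734 CPM of Atp1b1, against 8.90 to 38.2 CPM in the other vehicle libraries, and without Vehicle 5 its log2 fold change was -0.10. Atp1b2 was then at -0.80, and with fewer GW2580 libraries its value stayed near that of all 10 (-2.33 without GW2580 3 and -2.32 without GW2580 5), with unadjusted p-values of 0.0700 and 0.0555. Without Vehicle 2 and Vehicle 5, 2 pump genes were called higher and 0 lower, and Atp1b1 was at 0.69.

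Calm3 encodes calmodulin, the calcium sensor of Kcnn4, and was called lower. Calm3 had 88.2, 301, 61.3, 66.5 and 283 CPM in Vehicle 1 to 5, and 28.8, 48.3, 51.2, 33.9 and 58.0 CPM in GW2580 1 to 5. All 5 GW2580 libraries lay below all vehicle libraries, as did 0.985% of all tested genes. The log2 fold change was -1.86 (SE 0.50) with an adjusted p of 0.280 (Benjamini-Hochberg, edgeR quasi-likelihood test), and without Vehicle 2 and Vehicle 5 it was -0.72 (unadjusted p = 0.0510).

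The partners of highest level in the other lists were not called with all 10 libraries. The store-operated calcium channel gene Orai1 had a log2 fold change of 0.05, the inflammasome adaptor Pycard -0.88, the ADP-ribose hydrolase Nudt9 -0.37, the magnesium transporter Magt1 0.35 and the proton channel Hvcn1 0.79. Pycard met the call lower without Vehicle 5 (-1.18, unadjusted p = 0.0276), without GW2580 5 (-1.44, unadjusted p = 0.0444) and without both (-1.74). Its Benjamini-Hochberg adjusted p in edgeR's quasi-likelihood test was 0.0167 without both, against 0.185 to 0.693 in 5 other omissions of libraries. Pycard was not alone in this: without both, the same adjusted p was 0.00792 for Trpm5 and 0.0134 for Kcnd1. It was 0.0236 for Calm3 and 0.0276 for Kcnh2, and stayed above 0.05 for Kcnk6 (0.0515) and Hvcn1 (0.0596). On the first principal component Vehicle 5 lay at -77.9, far from the other vehicle libraries, and GW2580 5 at 45.8, beside them. Leaving out both therefore sharpens the contrast between the groups, and all called genes rose from 3046 to 6057. For that reason these adjusted p-values cannot decide whether the genes differed with treatment. Without GW2580 3, Hvcn1 was at 0.39, Magt1 at 0.014, Orai1 at -0.28 and Nudt9 at -0.58.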

How the data were processed

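RNA-seq libraries were prepared from CD11b+ brain cells with SMART-Seq v4, 1 library per mouse. Per the study's methods, the authors trimmed reads, aligned them with STAR and counted fragments per NCBI gene on GRCm38 with featureCounts, and the deposited file headers give version 1.6.3 and unstranded counts. The values used were the deposited raw counts per gene, not normalized. From these, 28419 genes that exceeded 1 CPM in 3 or more libraries were tested with edgeR 4.0.16 (TMM scaling, quasi-likelihood F test, treatment only, Benjamini-Hochberg adjustment over all tested genes) in R 4.3.3. The permutation test used log2 CPM with a prior count of 2. DESeq2 1.42.0 and limma 3.58.1 were alternatives. Gene symbols, positions and promoters came from the RefSeq table of GRCm38.p6, which held 46029 of 46152 gene identifiers. On data simulated for GW2580 against vehicle over 28419 genes, the quasi-likelihood test called 95% of genes changed by 2 on the log2 scale and 3.00% of unchanged genes. Only changes of 2 and 3 were simulated, while the fitted log2 fold changes of the channel genes reached at most 1.15. The share called among changes of that size was not measured. Both shares describe the simulated data and are not error rates of the comparison between these mice.

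The 8 channel genes and all lists were chosen with earlier results of these data known. Named among the other genes were the 4 of highest mean CPM per kb in each channel family, the 3 of smallest p in each direction among those called, and, in each partner list, every gene called or else the most abundant. The 2 nearest profiles were named per channel gene. Some genes that these rules name are not reported here. P-values measure the spread between these mice. Libraries of a group correlated at 0.818 to 0.976 (vehicle) and 0.851 to 0.960 (GW2580) in log2 CPM, and 0 pairs were identical. Alternatives were other scalings, filters, tests and prior counts, covariates, a replicate block, removal of a length trend and omission of libraries.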

Additional observations from a re-analysis of the deposited data

Results flagged for a closer look

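A single library lay far from the rest of its group for 4 of 16 sets of 5 libraries (8 channel genes in 2 groups), by a gap above 0.71 of the group's range. For normally distributed values chance gives about 1 such set in 20. The gaps were taken on CPM and not on its log2, so that rate need not hold here. Genes measured in the same libraries are also not independent. Kcnj2 in Vehicle 5, at 2.19 CPM against 13.3 to 18.6 CPM in the other vehicle libraries, was not flagged on this scale. Kcnk13 was at 240.0 CPM in GW2580 3, where the other GW2580 libraries lay between 71.2 and 119 CPM. Trpv2 was at 239 CPM in GW2580 3, against 72.9 to 118 CPM. Kcnn4 was at 44.4 CPM in Vehicle 5, against 13.8 to 22.5 CPM in the other vehicle libraries, and Trpm7 was at 61.8 CPM in Vehicle 5, against 21.2 to 31.1 CPM.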

How the results depend on the processing

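Of 25 alternatives, the log2 fold change of Kcnk6 was above 0 in 25 and met the call in 20, with a range of 0.67 to 1.30 and adjusted p-values of 0.0515 to 0.656 (Benjamini-Hochberg, edgeR, DESeq2 or limma). It lost the call with limma-voom (0.96), with the replicate block (0.97), without GW2580 3 (0.69), without Vehicle 2 and Vehicle 5 (0.92) and with the microglial markers as a covariate (0.67). Kcna3 gained it without Vehicle 5 (1.10) and without Vehicle 5 and GW2580 5 (1.16). Trpm2 changed sign in 5 alternatives, with -0.013 under the microglial covariate and -0.11 to 0.19 when 1 library was left out. The causes were not tested.

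The number of channel genes called higher, 1, became 0 with limma-voom, with the replicate block, with the microglial covariate and without Vehicle 2 and Vehicle 5, and 2 without Vehicle 5 and GW2580 5, and leaving out 1 library gave 0 to 2. The 3046 genes called in all became 4802 with no filter, 1181 with the percentage of fragments on no exon as a covariate, 1641 with the microglial covariate and 6057 without Vehicle 5 and GW2580 5, and 1684 to 4848 without 1 library. Calls among other potassium channel genes, 18, became 10 with library size alone, 6 with the glial and neuronal covariate, 5 with the no-exon covariate, 5 without Vehicle 2 and Vehicle 5 and 3 with the microglial covariate, and 12 to 27 without 1 library. Calls among other TRP genes, 3, became 5 with no filter, 5 with the exact test, 1 with the no-exon covariate and 1 without Vehicle 2 and Vehicle 5, and 1 to 5 without 1 library. Calls among partner genes, 5, became 1 with the glial and neuronal covariate, 1 with the no-exon covariate, 2 with the microglial covariate and 11 without Vehicle 5 and GW2580 5, and 3 to 8 without 1 library.

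The replicate numbers give a mouse a number in its group. The labels do not say whether equal numbers pair mice, and equal numbers shared a sex. The deviations of same-numbered libraries correlated at -0.05, 0.39, 0.09, -0.44 and -0.57, which cannot decide whether mice were paired. A replicate block gave 2554 called genes. Only Vehicle 2 and GW2580 2 correlated best with the library of their own number, and all other libraries correlated best with another number. Kcnj2 rests on 39 counts in the lowest library, and with 5 mice a group the exact permutation test cannot go below 0.00794.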
